A study of Arabidopsis thaliana with 27 samples.

Results

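The glucosinolate synthesis genes described here were 10 rows of the table of normalized counts, chosen by locus identifier and out of 34218 genes in all. They were the regulators *MYB28* (AT5G61420) and *MYB29* (AT5G07690), the side-chain elongation enzymes *BCAT4* (AT3G19710) and *MAM1* (AT5G23010), the aliphatic core enzymes *CYP79F1* (AT1G16410) and *CYP83A1* (AT4G13770), the indolic core enzymes *CYP79B2* (AT4G39950), *CYP79B3* (AT2G22330) and *CYP83B1* (AT4G31500), and *SUR1* (AT2G20610), which serves both branches. All 10 passed the filter on low values, a mean of at least 10 normalized counts in at least 1 group, which 18785 genes passed.

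Glucosinolates are sulfur-rich defence compounds of Arabidopsis and its relatives, which myrosinases split into toxic products when a leaf is wounded. Aliphatic glucosinolates start from methionine: *BCAT4* removes its amino group, *MAM1* lengthens the carbon chain, *CYP79F1* turns the elongated amino acid into an aldoxime and *CYP83A1* oxidizes that aldoxime, with *MYB28* and *MYB29* as activators of these steps. Indolic glucosinolates start from tryptophan, which *CYP79B2* and *CYP79B3* turn into indole-3-acetaldoxime and *CYP83B1* oxidizes further, and *SUR1* is the carbon-sulfur lyase through which both branches pass.

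RNA from leaves of Arabidopsis thaliana was sequenced in 27 samples, 3 for each of 9 groups. The groups were *GC::AtTOR*, *35S::AtTOR* and WT (Col-0) plants, each well-watered, in drought or re-watered. *GC::AtTOR* carries *AtTOR* behind a tobacco promoter active in guard cells and *35S::AtTOR* carries it behind the constitutive 35S promoter; both were made in Col-0 and selected with a herbicide. The labels put the drought at 11 days without water, between 27 and 38 days after germination (DAG), followed for the re-watered plants by 4 days with water; they give no harvest age for the well-watered samples. The study kept several homozygous lines of each construct, and which of them gave each sample is not given in the sources used here, so a line here means a construct. The study calls the replicates biological, while the labels do not say whether they were separate plants, so the spread and the p-values describe these samples.

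The samples held 10385851 to 16707106 recovered reads, apart from 2739872 in *35S::AtTOR* re-watered replicate 1 and *35S::AtTOR* well-watered replicate 1, for which the read number was not recovered. *TOR* itself had 12857, 9229 and 14649 normalized counts in well-watered *35S::AtTOR* leaves and 1254, 1164 and 1144 in well-watered *GC::AtTOR* leaves, against 1250.1, 1205 and 1128 in well-watered WT leaves, so whole-leaf counts show the 35S construct and not the guard cell one. In whole leaves, fewer cells of a type and less RNA per cell cannot be told apart. The 4 mesophyll markers carried the counts of a leaf sample, with summed normalized counts of 61718 to 547855 per sample, and *AG*, the only 1 of 4 flower markers above the filter on low values, was at most 28.7.

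Samples of 1 drought group differed among themselves. WT drought replicate 3 and *GC::AtTOR* drought replicates 2 and 3 had low counts of a list of 10 jasmonate synthesis and response genes, with medians -1.01, -0.96 and -1.21 on the log2 scale relative to well-watered WT, while the other 6 drought samples lay between 1.68 and 3.93. The counts of members in drought are given below also with these 3 samples left out together, an alternative chosen after seeing the data, which leaves 1 drought sample of *GC::AtTOR* that is assumed to vary like the other groups. Shares of all genes are given for all samples only, so counts with samples left out have no such share beside them.

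In the TAIR10.1 annotation the members lie on 5 chromosomes. The regulators are at chr5:24689069-24691187 and chr5:2446669-2448584, *BCAT4* at chr3:6846969-6849582, *MAM1* at chr5:7703041-7706973, *CYP79F1* at chr1:5608682-5612064 and *CYP83A1* at chr4:7990429-7992429. The indolic enzymes are at chr4:18525042-18527602, chr2:9488413-9491404 and chr4:15273410-15275404, in the order *CYP79B2*, *CYP79B3* and *CYP83B1*, and *SUR1* is at chr2:8877887-8880440.

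Promoter sequence is shown for 3 members that fell together in re-watered plants of both lines: *CYP79F1*, which moved most, and *CYP83A1* and *SUR1*, the only members with a G-box (CACGTG, the same letters on both strands) in the 300 bases before the annotated start. The sequences are RefSeq's, from the TAIR10.1 assembly, at chr1:5608382-5608681 on the plus strand, chr4:7992430-7992729 on the minus strand and chr2:8880441-8880740 on the minus strand, read 5′ to 3′ along each gene, with the G-box in capitals. No other gene lies in these windows.
CYP79F1: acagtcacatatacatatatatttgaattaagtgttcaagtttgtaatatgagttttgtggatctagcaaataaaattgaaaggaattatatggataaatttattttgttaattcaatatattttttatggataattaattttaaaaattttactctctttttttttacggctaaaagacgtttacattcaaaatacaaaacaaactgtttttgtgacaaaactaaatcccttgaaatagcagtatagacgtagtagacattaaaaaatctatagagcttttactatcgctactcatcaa
CYP83A1: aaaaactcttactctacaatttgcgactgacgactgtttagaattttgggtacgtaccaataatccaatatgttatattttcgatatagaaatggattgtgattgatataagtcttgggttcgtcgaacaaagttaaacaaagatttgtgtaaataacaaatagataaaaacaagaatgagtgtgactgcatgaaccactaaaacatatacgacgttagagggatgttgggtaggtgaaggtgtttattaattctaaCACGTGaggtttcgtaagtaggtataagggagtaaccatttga
SUR1: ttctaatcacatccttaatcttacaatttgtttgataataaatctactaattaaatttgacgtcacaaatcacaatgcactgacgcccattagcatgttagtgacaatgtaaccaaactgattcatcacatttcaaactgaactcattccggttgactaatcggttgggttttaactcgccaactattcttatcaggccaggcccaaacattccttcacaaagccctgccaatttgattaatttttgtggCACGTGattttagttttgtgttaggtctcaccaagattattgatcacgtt
The G-box starts 43 bases before the start of *CYP83A1* and 50 bases before that of *SUR1*. It was found in 2 of 10 members and in 7.09% of 27443 promoters of that length. The evening element (AAAATATCT or its reverse complement AGATATTTT) was found in 0 of 10 members and in 2.79% of those promoters. These are matches of letters and were not tested as binding sites.

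In well-watered WT leaves the members spanned a wide range of levels per length. Per 1000 coding bases, *MAM1* averaged 3867 ± 218 normalized counts, *CYP83A1* 3621 ± 89.7, *CYP79F1* 3223 ± 78.4, *CYP83B1* 2759 ± 358 and *BCAT4* 2589 ± 112 (SD, n = 3 here and below). *SUR1* followed at 1510 ± 9.95, *MYB28* at 1254 ± 150, *MYB29* at 587 ± 33.3, *CYP79B3* at 438 ± 10.4 and *CYP79B2* at 398 ± 13.6. The highest of these were *MAM1*, *CYP83A1* and *CYP79F1* of the aliphatic branch, and the lowest were *CYP79B2* and *CYP79B3*, which make indole-3-acetaldoxime.

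**Figure D1:**
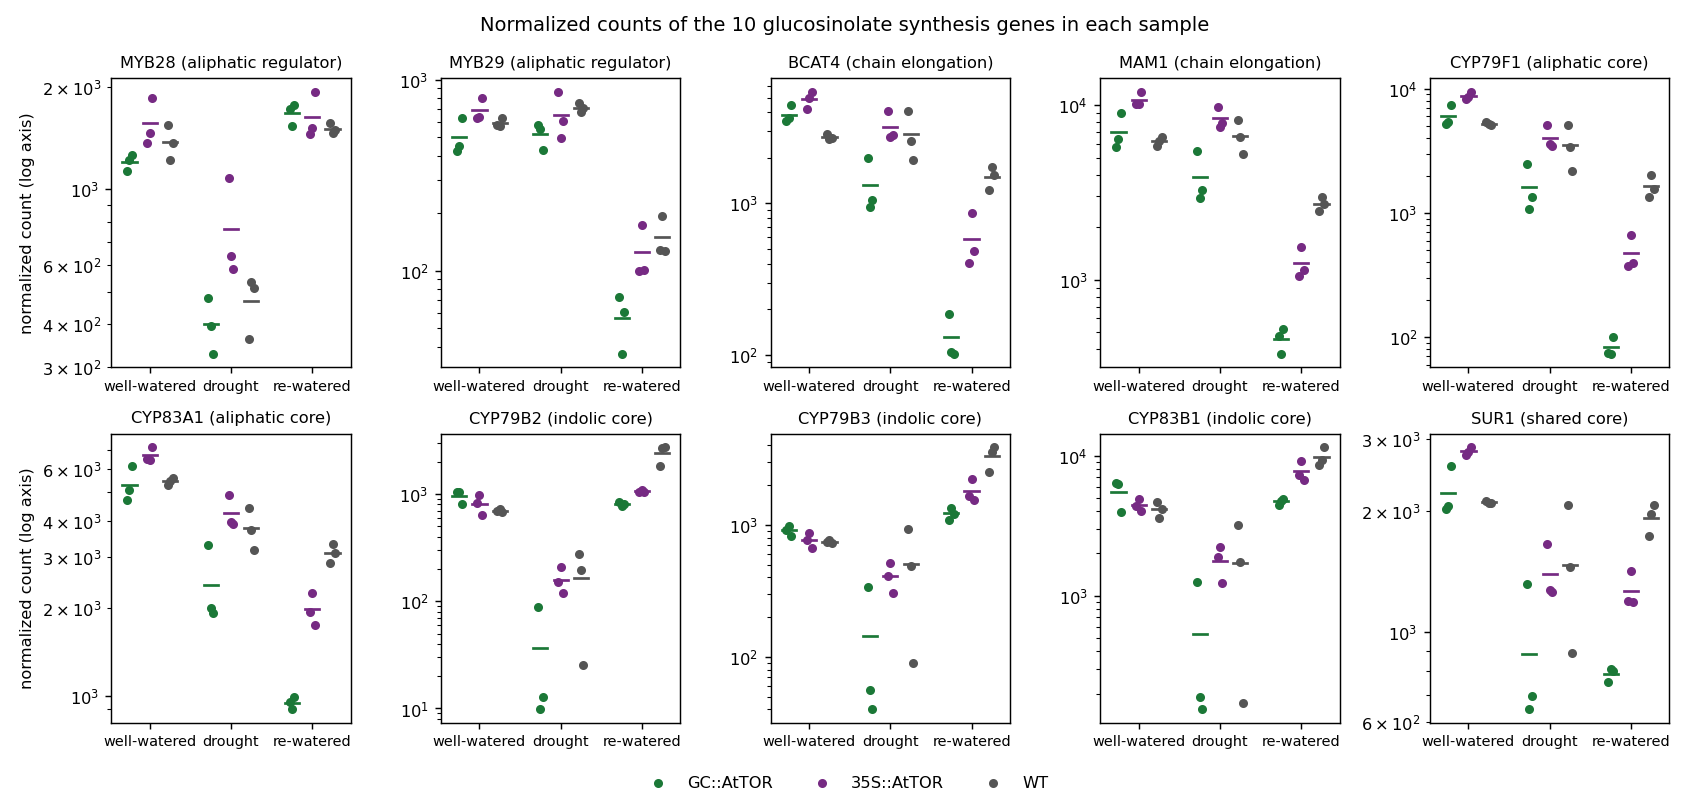
Normalized counts (log axis) of the 10 members in each of the 27 samples, by water treatment, with *GC::AtTOR*, *35S::AtTOR* and WT from left to right in each treatment; points are samples and lines are group means. *MYB28* is lowest in drought in all 3 genotypes, *MYB29* and the aliphatic enzymes are lowest in re-watered *GC::AtTOR* leaves, and the 3 indolic enzymes are lowest in drought and highest in re-watered WT leaves.

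The first comparison asked how 11 days of drought changed the members. In *GC::AtTOR* leaves 8 of 10 members were lower in drought, all but *MYB29* and *MAM1*, where 17.0% of all genes tested were lower; with the 3 samples left out there were 5, *MYB28*, *CYP79F1*, *CYP79B2*, *CYP79B3* and *CYP83B1*. In *35S::AtTOR* leaves 4 of 10 were lower, *MYB28*, *CYP79F1*, *CYP79B2* and *SUR1*, beside 5.44% of all genes, and in WT leaves 3 of 10 were lower, *MYB28*, *CYP79B2* and *CYP83B1*, beside 12.8% of all genes. With limma 0 members were higher in drought, beside 8.02% of all genes in *GC::AtTOR*, 2.32% in *35S::AtTOR* and 7.61% in WT. edgeR and DESeq2 each called 8, 4 and 2 members in the 3 genotypes. Over all genes, in either direction, edgeR called 4717, 1310 and 3872 and DESeq2 called 4727, 1352 and 3891. At an unadjusted p under 0.05, 9 members passed in *GC::AtTOR*, 5 in *35S::AtTOR* and 6 in WT. Counts at an unadjusted p, in this and later comparisons, have no share of all genes beside them. They are not read as a result about the members. The members' median log2 fold change was -1.60 in *GC::AtTOR*, -0.98 in *35S::AtTOR* and -0.62 in WT, where all genes tested had medians of -0.03, -0.01 and -0.03. With every sample scaled to the same total, the higher share of all called genes became 49.4% in place of 32.1% in *GC::AtTOR* and 56.5% in place of 37.2% in WT. Here and below, passing means an adjusted p in limma of less than 0.05 together with a log2 fold change beyond 1 in either direction.

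*MYB28*, the main activator of aliphatic glucosinolate synthesis, was lower in drought in every genotype, as *CYP79B2* was. It had 479.9, 396 and 328 normalized counts in drought *GC::AtTOR* leaves, against 1133, 1220.1 and 1262 in well-watered ones (log2 fold change -1.60 ± 0.19 (SE), adjusted p = 4.94e-07). Drought *35S::AtTOR* leaves had 1078, 636 and 584, against 1374, 1466 and 1866 when well-watered (log2 fold change -1.08 ± 0.19 (SE), adjusted p = 0.000433). In WT leaves the drought values were 362, 534 and 514, against 1551, 1220.3 and 1370.3 (log2 fold change -1.57 ± 0.19 (SE), adjusted p = 9.58e-07). The drought and well-watered samples did not overlap in any genotype. The *35S::AtTOR* call is the weakest of these: without *35S::AtTOR* drought replicate 3, drought replicate 2 or well-watered replicate 3, or with equal sample totals, its fold change was under the threshold.

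*MYB29*, the other activator, did not follow. It had 576, 548 and 428 normalized counts in drought *GC::AtTOR* leaves, against 425, 448 and 631 in well-watered ones, and 750.0, 674 and 712 in drought WT leaves, against 578, 569.9 and 632 in well-watered ones. Its log2 fold changes in drought were 0.06 in *GC::AtTOR*, -0.10 in *35S::AtTOR* and 0.26 in WT, with 95% confidence intervals of -0.46 to 0.57, -0.61 to 0.41 and -0.25 to 0.77.

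None of the 4 aliphatic enzymes passed in WT. *CYP79F1*, which makes the aldoxime of elongated methionine, had 2464, 1081 and 1351 normalized counts in drought *GC::AtTOR* leaves, against 5175, 5428 and 7353 in well-watered ones (log2 fold change -1.95 ± 0.29 (SE), adjusted p = 7.46e-06). In *35S::AtTOR* leaves it had 5088, 3591 and 3454 in drought, against 8226, 8492 and 9480.5 (log2 fold change -1.13 ± 0.29 (SE), adjusted p = 0.00654). In WT leaves it had 5092, 3407 and 2162 in drought, against 5357, 5151 and 5125, which did not pass (log2 fold change -0.64 ± 0.29 (SE), adjusted p = 0.0675). The drought samples of WT spread widely, replicate 1 lying just under the well-watered range and replicate 3 far under it, and the drought *GC::AtTOR* samples all lay below the well-watered ones. *BCAT4* (log2 fold change -1.61, adjusted p = 0.000112) and *CYP83A1* (-1.18, adjusted p = 2.92e-06) fell in *GC::AtTOR* leaves but no longer passed with the 3 samples left out (-0.94, adjusted p = 0.0497, for *BCAT4* and -0.68, adjusted p = 0.00338, for *CYP83A1*, both under the fold threshold), while in WT leaves their values were -0.01 and -0.55. *MAM1* was at -0.89, -0.36 and 0.08 in *GC::AtTOR*, *35S::AtTOR* and WT and passed in none, though it passed in *GC::AtTOR* without well-watered or drought replicate 1.

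**Figure D2:**
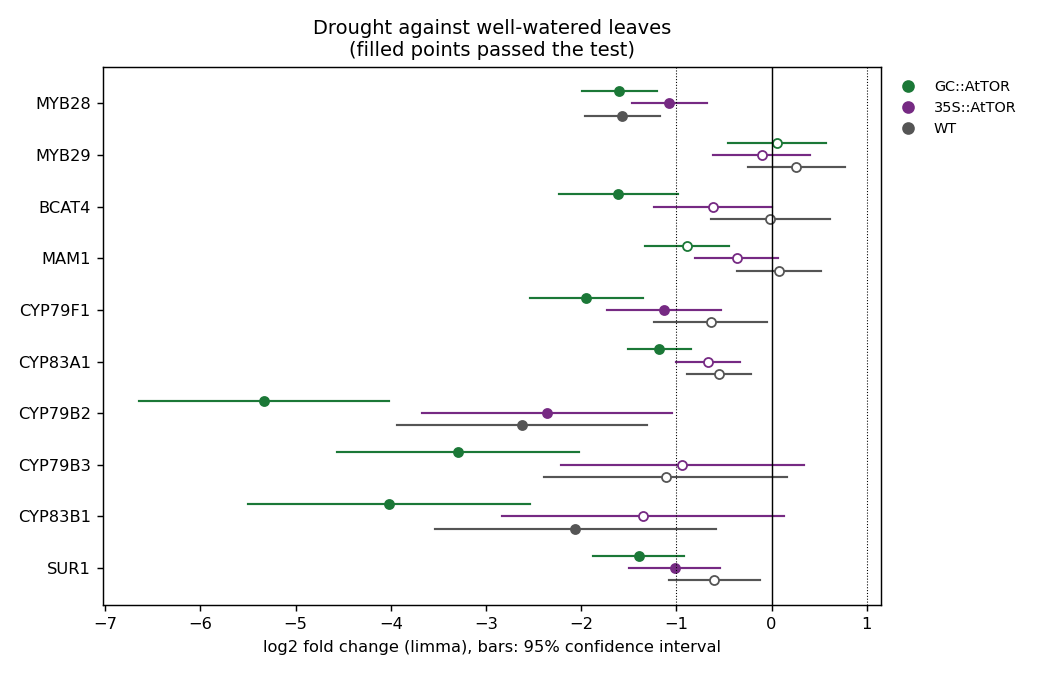
Log2 fold change of each member in drought against well-watered leaves (x axis), with *GC::AtTOR*, *35S::AtTOR* and WT from top to bottom within a gene; points are limma estimates, bars their 95% confidence intervals, filled points passed the test and dotted lines mark the fold threshold. *MYB28* passed in all 3 genotypes and *MYB29* in none, and the widest intervals belong to the indolic members.

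The indolic enzymes spread widely between drought samples. *CYP79B2* had 88.0, 9.81 and 12.7 normalized counts in drought *GC::AtTOR* leaves, against 1034, 1038 and 801 in well-watered ones (log2 fold change -5.33 ± 0.63 (SE), adjusted p = 4.99e-07). In *35S::AtTOR* leaves it had 151, 208 and 119 in drought, against 822, 973 and 640.0 (log2 fold change -2.36 ± 0.63 (SE), adjusted p = 0.00942). In WT leaves it had 273, 197 and 25.6 in drought, against 688, 722 and 676 (log2 fold change -2.62 ± 0.63 (SE), adjusted p = 0.00163). Drought samples lay below well-watered ones in each genotype, and *GC::AtTOR* drought replicates 2 and 3 and WT drought replicate 3 were far below the rest. *CYP83B1* had 1259, 188 and 154 in drought *GC::AtTOR* leaves, 1875, 2217 and 1238 in *35S::AtTOR* leaves and 3175, 1752 and 171 in WT leaves, with the same samples lowest. *CYP79B3* fell in *GC::AtTOR* leaves (log2 fold change -3.30 ± 0.61 (SE), adjusted p = 0.000107), and its values in *35S::AtTOR* and WT leaves were -0.94 and -1.11.

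The indolic members and the jasmonate genes were low in the same drought samples. Relative to well-watered WT, the median of the 3 indolic members was -4.58 in WT drought replicate 3 and -4.45 and -4.73 in *GC::AtTOR* drought replicates 2 and 3, against -0.37 to -1.73 in the other 6 drought samples. The median of the 4 aliphatic enzymes was lowest in these samples too, at -0.64, -1.50 and -1.44 in the same order. In the other 6 it lay between -0.60 and 0.26. Without WT drought replicate 3, the WT drought change of *CYP83B1* was -0.80 (adjusted p = 0.227) and no longer passed, while that of *CYP79B2* was -1.58 (adjusted p = 0.016) and still did. That left 2 members in WT, as did leaving out WT well-watered replicate 1, and without WT drought replicate 1 there were 4. Over the samples left out, the adjusted p of *CYP83B1* ranged over 0.00196 to 0.227, and it was also lost with edgeR, with DESeq2 and in a fit of the compared groups alone. The *GC::AtTOR* count of members was 8 or 9 with any single sample left out, and in *35S::AtTOR* it was 2 to 4, the 2 without drought replicate 2 or 3. With WT drought replicate 3 and *GC::AtTOR* drought replicates 2 and 3 left out together, the *GC::AtTOR* drought changes were -3.42 for *CYP79B2*, -1.42 for *CYP79B3*, -2.10 for *CYP83B1* and -1.26 for *CYP79F1*, all past the test, and -0.75 for *SUR1*, under the fold threshold. In WT 2 members passed, *MYB28* and *CYP79B2*. The part of the jasmonate response in these values was not tested.

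Markers of 3 leaf cell types passed as lower in drought in some genotypes as well. The summed mesophyll markers were at 104626 to 237696 normalized counts in drought *GC::AtTOR* leaves, against 427657 to 452219 in well-watered ones, and at 164938 to 202746 in drought WT leaves, against 467790.0 to 547855. In *35S::AtTOR* they were at 224254 to 294269, against 258641 to 330199. The number of the 4 that passed as lower was 4 in *GC::AtTOR*, 0 in *35S::AtTOR* and 4 in WT. The 5 guard cell markers summed to 167 to 219 in drought *GC::AtTOR* leaves, against 571 to 805 in well-watered ones, to 239 to 311 in drought *35S::AtTOR* leaves, against 592 to 746, and to 128 to 158 in drought WT leaves, against 459 to 633. Of these 5, 3 passed as lower in *GC::AtTOR*, 2 in *35S::AtTOR* and 5 in WT. The 2 bundle sheath markers summed to 294 to 360.2 in drought *GC::AtTOR* leaves, against 506 to 615 in well-watered ones, to 445 to 466 in drought *35S::AtTOR* leaves, against 553 to 750.0, and to 345 to 406 in drought WT leaves, against 513 to 600.2, with 1, 0 and 1 of the 2 past the test as lower, in the same order. Summed phloem markers were higher in drought WT leaves, at 8757 to 10452 against 5169 to 5967. In drought *GC::AtTOR* leaves they were at 7452 to 12736 against 4979 to 6540, and in *35S::AtTOR* the ranges overlapped. Summed xylem markers were lower in drought in all 3 genotypes. Summed epidermis markers were lower in *35S::AtTOR* and WT and higher in *GC::AtTOR*. The part of any of these markers in the members' change was not tested.

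**Figure D3:**
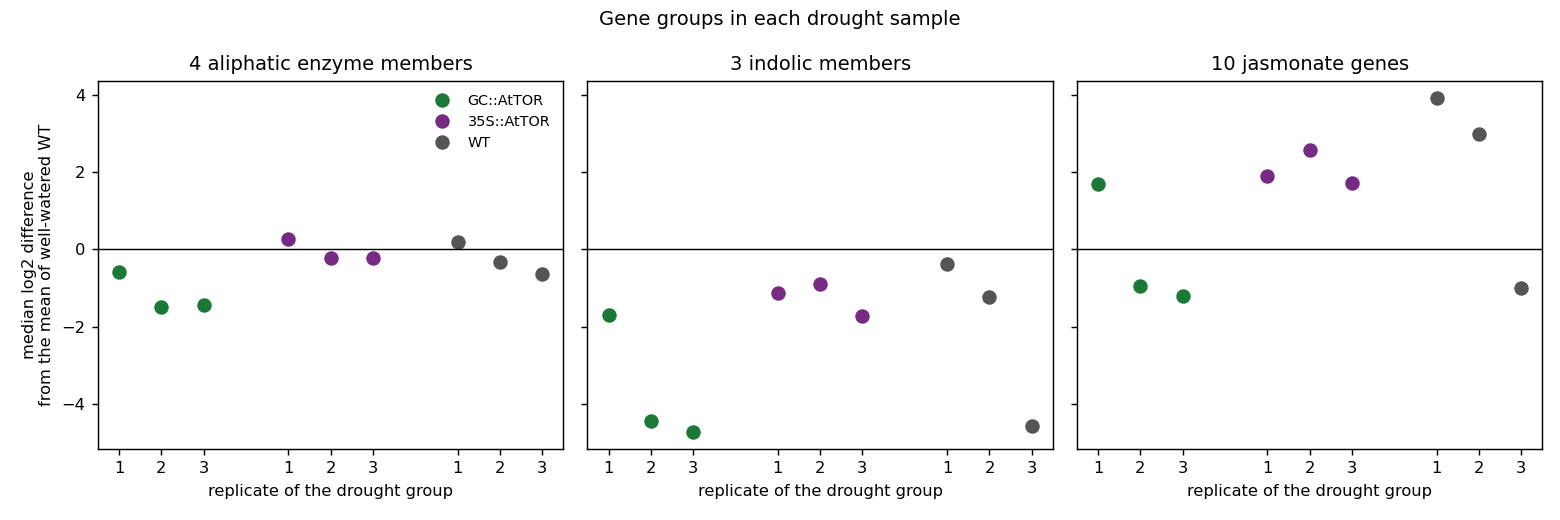
Median log2 difference from the mean of well-watered WT (y axis) over the 4 aliphatic enzymes, the 3 indolic enzymes and the 10 jasmonate genes, for each of the 9 drought samples (x axis, replicate number; *GC::AtTOR*, *35S::AtTOR* and WT from left to right). *GC::AtTOR* replicates 2 and 3 and WT replicate 3 lie lowest in all panels. For the aliphatic enzymes WT replicate 3 (-0.64) lies close to *GC::AtTOR* replicate 1 (-0.60).

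The next comparison set leaves re-watered for 4 days against well-watered leaves, and here no indolic enzyme passed as lower in any genotype. In *GC::AtTOR* leaves *MYB29*, *BCAT4*, *MAM1*, *CYP79F1*, *CYP83A1* and *SUR1* were lower, 6 of 10 members beside 7.95% of all genes, and the same 6 were lower in *35S::AtTOR* leaves, beside 9.92% of all genes. In WT leaves *MYB29*, *MAM1* and *CYP79F1* were lower, 3 of 10 beside 15.8%, and *CYP79B2* and *CYP79B3* were higher, 2 of 10 beside 14.4%. The count of members higher in WT is near the share of all genes and is not read as a result about the members. The median over members was -1.98 for *GC::AtTOR* leaves, -1.46 for *35S::AtTOR* leaves and -0.48 in WT, where all genes had 0.02, 0.00 and 0.02. With equal sample totals, *MAM1* in WT and *SUR1* in *35S::AtTOR* no longer passed and the higher share of all called genes was 65.0%, 65.3% and 65.5% in place of 45.6%, 49.5% and 47.7%.

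Of the regulators, *MYB29* fell in every genotype. It had 72.9, 36.7 and 60.6 normalized counts in re-watered *GC::AtTOR* leaves, against 425, 448 and 631 in well-watered ones (log2 fold change -3.15 ± 0.25 (SE), adjusted p = 1.45e-09). In *35S::AtTOR* leaves it had 99.2, 174 and 100.3, against 631, 635 and 802 (log2 fold change -2.50 ± 0.25 (SE), adjusted p = 3.6e-08). In WT leaves it had 129, 194 and 128, against 578, 569.9 and 632 (log2 fold change -2.00 ± 0.25 (SE), adjusted p = 4.19e-07). Every re-watered sample lay below every well-watered sample, and the lowest 3 of the 27 were those of re-watered *GC::AtTOR*. *MYB28* in re-watered leaves had 1723, 1541 and 1772 normalized counts for *GC::AtTOR*, 1455, 1513 and 1943 for *35S::AtTOR* and 1570.3, 1466 and 1498 for WT. Its log2 fold changes against well-watered leaves were 0.48, 0.06 and 0.14, none past the threshold. The 2 activators therefore moved at different stages: *MYB28* was low in drought and *MYB29* after re-watering. In the order of the 9 group means, *MYB28* had its gap between the 6 well-watered and re-watered groups and the 3 drought groups, and *MYB29* between the 6 well-watered and drought groups and the 3 re-watered groups, with neighbours on each side of these gaps mostly overlapping.

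*CYP79F1* spanned the widest range of any member, 106-fold between the highest and lowest group mean. It had 74.8, 73.5 and 99.7 normalized counts in re-watered *GC::AtTOR* leaves, a 71.4-fold lower level than in well-watered ones (log2 fold change -6.16 ± 0.29 (SE), adjusted p = 3.25e-13). In re-watered *35S::AtTOR* leaves it had 372, 668 and 396, 18.8-fold lower (log2 fold change -4.24 ± 0.29 (SE), adjusted p = 1.07e-10). In re-watered WT leaves it had 1342, 2012 and 1544, 3.24-fold lower (log2 fold change -1.69 ± 0.29 (SE), adjusted p = 2.66e-05). The re-watered samples of the 3 genotypes did not overlap, with *GC::AtTOR* lowest, *35S::AtTOR* between and WT highest. *CYP79F1* and its neighbour *CYP79F2* share 91.9% of their coding bases, with identical runs of up to 100 bases, so reads may have been divided between them; *CYP79F2* had only 67.1, 99.3 and 77.6 in well-watered WT leaves.

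*BCAT4*, the aminotransferase at the entry of chain elongation, had 186, 105 and 102 normalized counts in re-watered *GC::AtTOR* leaves, against 3484, 3647 and 4444 in well-watered ones (log2 fold change -4.92 ± 0.30 (SE), adjusted p = 3.13e-11). Re-watered *35S::AtTOR* leaves had 405, 867 and 483, against 4169.9, 4966 and 5474 (log2 fold change -3.13 ± 0.30 (SE), adjusted p = 2.42e-08). In WT leaves it had 1225, 1735 and 1537, against 2891, 2663 and 2719.5, a change under the fold threshold (log2 fold change -0.89 ± 0.30 (SE), adjusted p = 0.0133). Without WT re-watered replicate 2 the WT change passed. The re-watered samples lay below the well-watered ones in every genotype, furthest in *GC::AtTOR*. *MAM1*, which condenses the chain with acetyl-CoA, had 473, 376 and 519.9 in re-watered *GC::AtTOR* leaves, 1049.8, 1535 and 1144 in *35S::AtTOR* leaves and 2492, 2976 and 2716 in WT leaves, with log2 fold changes of -3.93, -3.13 and -1.19 against well-watered leaves (adjusted p = 3.61e-12, 9.8e-11 and 4.6e-05). *CYP83A1* had 951, 897 and 987 in re-watered *GC::AtTOR* leaves, 1938, 2255 and 1754 in *35S::AtTOR* leaves and 2859, 3315 and 3091 in WT leaves. Its log2 fold changes were -2.48, -1.76 and -0.83 in the 3 genotypes, that of WT under the threshold (adjusted p = 7.89e-11, 1.14e-08 and 0.000134). In all of these enzymes the order was the same, with *GC::AtTOR* lowest and WT highest.

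*SUR1*, the lyase both branches use, changed less. It had 752, 811 and 801 normalized counts in re-watered *GC::AtTOR* leaves, against 2012, 2054 and 2582 in well-watered ones (log2 fold change -1.48 ± 0.23 (SE), adjusted p = 2.16e-05). Re-watered *35S::AtTOR* leaves had 1194, 1415 and 1189, against 2749, 2798 and 2871 (log2 fold change -1.15 ± 0.23 (SE), adjusted p = 0.000257). In WT leaves it had 1728, 1964 and 2059.7, against 2112, 2093 and 2086 (log2 fold change -0.13 ± 0.23 (SE), adjusted p = 0.632), and did not pass.

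In WT leaves the indolic enzymes had positive log2 fold changes, and *CYP79B2* and *CYP79B3* passed as higher. *CYP79B2* had 1840.4, 2707 and 2732 normalized counts in re-watered WT leaves, against 688, 722 and 676 in well-watered ones (log2 fold change 1.78 ± 0.63 (SE), adjusted p = 0.0186), a call lost without re-watered replicate 2 or 3, with adjusted p of 0.0241 to 0.0526 over the samples left out. *CYP79B3* had 2518, 3574 and 3882, against 739.6, 765 and 731 (log2 fold change 2.13 ± 0.61 (SE), adjusted p = 0.0046). *CYP83B1* had 8529.8, 9277 and 11505, against 4670.1, 3597 and 4149.8, and did not pass (log2 fold change 1.24 ± 0.71 (SE), adjusted p = 0.135) in the model of all groups, whose spread for these genes includes the drought samples. In a fit of only the compared groups, and with equal sample totals, *CYP83B1* passed as well (adjusted p of 4.06e-05 to 0.162 over the settings). In *GC::AtTOR* leaves the log2 fold changes were -0.24, 0.43 and -0.20, and in *35S::AtTOR* leaves 0.40, 1.22 and 0.80, none of which passed. *CYP79B3* in *35S::AtTOR* passed as higher in a fit of only the compared groups and with equal sample totals (adjusted p of 0.000431 to 0.145 over the settings that keep all samples).

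**Figure D4:**
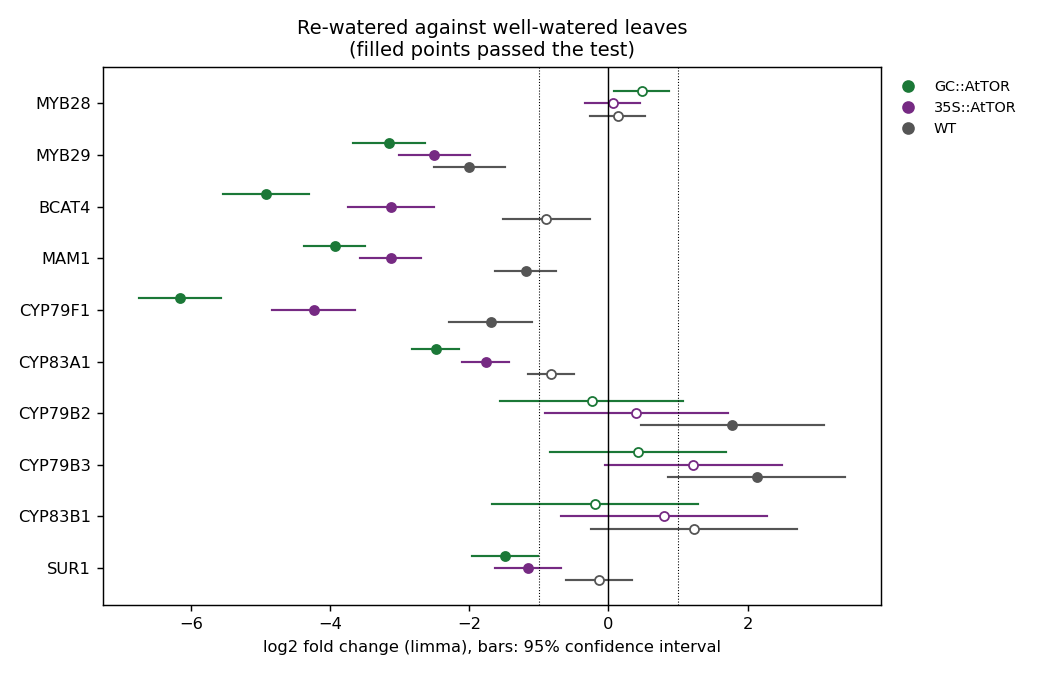
Log2 fold change of each member in re-watered against well-watered leaves (x axis), with *GC::AtTOR*, *35S::AtTOR* and WT from top to bottom within a gene; points are limma estimates, bars their 95% confidence intervals, filled points passed the test and dotted lines mark the fold threshold. *MYB29* and the aliphatic enzymes lie furthest left in *GC::AtTOR*, and *CYP79B2* and *CYP79B3* passed to the right in WT.

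Other gene lists moved with re-watering in every genotype, and their part in the members' change was not tested. Of 7 evening clock genes, 4 were lower in *GC::AtTOR*, 5 in *35S::AtTOR* and 4 in WT, and the summed counts of the list were 5318 to 5536, 3851 to 4472 and 4784 to 4888, against 13253 to 13546, 15209 to 16300 and 14079.9 to 14281 in well-watered leaves. GIGANTEA (*GI*) alone had 163, 156 and 187 normalized counts in re-watered WT leaves, against 3841, 3460.2 and 3503 in well-watered ones. The labels give no hour of harvest, so re-watering and the time of day of sampling cannot be told apart. Between genotypes the evening list gave no call after re-watering: 0 and 0 of its genes were lower and 0 and 0 higher in *GC::AtTOR* and *35S::AtTOR* than in WT with limma, with medians of -0.12 and -0.23. Its summed counts above still did not overlap, with *GC::AtTOR* highest and *35S::AtTOR* lowest. The morning clock genes, at low counts, summed to 21.4 to 68.1 in re-watered *GC::AtTOR* leaves. In *35S::AtTOR* leaves they summed to 62.3 to 157, and in WT leaves to 86.5 to 90.0.

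Set against drought leaves, re-watered leaves of both lines had the indolic and the aliphatic enzymes moving in opposite directions. The aliphatic regulator *MYB28* went with the indolic enzymes. *MYB28*, *CYP79B2*, *CYP79B3* and *CYP83B1* were higher in all 3 genotypes. *MYB29*, *BCAT4*, *MAM1*, *CYP79F1* and *CYP83A1* were lower in both lines, and *MYB29*, *MAM1* and *CYP79F1* in WT. In either direction 9 of 10 members passed in *GC::AtTOR*, beside 28.2% of all genes, 9 in *35S::AtTOR*, beside 21.2%, and 7 in WT, beside 28.0%. *CYP79B2* had the largest of these increases, 5.10 ± 0.63 in *GC::AtTOR*, 2.76 ± 0.63 in *35S::AtTOR* and 4.40 ± 0.63 in WT (log2, SE). These values share the drought and re-watered samples of the comparisons above and are no separate evidence. In *35S::AtTOR*, *MYB28* and *CYP83B1* no longer passed without drought replicate 3, nor *CYP83A1* without drought replicate 1. Without WT drought replicate 1 or re-watered replicate 1, *CYP79F1* in WT no longer passed, and without WT drought replicate 3, *BCAT4* in WT also passed. With the 3 samples that stand apart left out together, 9 members passed in *GC::AtTOR* and 8 in WT, where *BCAT4* was added.

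The lines were then set against WT within each treatment, which asks whether the members differed between plants with and without a construct. In well-watered leaves 0 of 10 members passed in *GC::AtTOR*, beside 1.07% of all genes in either direction, and 0 of 10 in *35S::AtTOR*, beside 2.75%; edgeR and DESeq2 also called 0 in both, and 0 and 3 members had an unadjusted p under 0.05. For 3 of 10 members, *BCAT4*, *CYP79B2* and *CYP79B3*, every *GC::AtTOR* sample lay above every WT sample, as for 12.2% of all genes tested. For 5 of 10 members, *BCAT4*, *MAM1*, *CYP79F1*, *CYP83A1* and *SUR1*, every *35S::AtTOR* sample lay above every WT sample, as for 19.7% of all genes tested. *MAM1* had 10196, 10148 and 11963 normalized counts in *35S::AtTOR* leaves, against 5858, 6203 and 6557 in WT leaves (log2 fold change 0.79 ± 0.21 (SE), adjusted p = 0.0208), under the fold threshold. *BCAT4* (0.81, adjusted p = 0.0845) and *CYP79F1* (0.74, adjusted p = 0.0988) did not pass. In the same samples the mesophyll markers summed to 258641 to 330199 in *35S::AtTOR* leaves, against 467790.0 to 547855 in WT leaves, and the phloem markers to 7860.3 to 7956, against 5169 to 5967, both without overlap; their part in these values was not tested. With equal sample totals, 67.2% of all called genes were higher in well-watered *35S::AtTOR* in place of 47.6%.

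In drought leaves 0 of 10 members passed in either line in limma, where 0.0160% of all genes passed for *GC::AtTOR* and 1.55% for *35S::AtTOR*, and edgeR and DESeq2 called 0 as well. In *GC::AtTOR* all 10 members had a negative log2 fold change and 8 had an unadjusted p under 0.05. In *35S::AtTOR* 1 member had such a p. The shares of all genes for these counts are not given here. The counts of members that passed depended on single samples, and the share of all genes called without those samples is not given here. Without WT drought replicate 3, 6 members were lower in *GC::AtTOR* than in WT, among them *CYP79B2* (-3.30, adjusted p = 0.00927) and *CYP79F1* (-1.44, adjusted p = 0.0233), and without *GC::AtTOR* drought replicate 1, 6 were (adjusted p of *CYP79B2* over the samples left out, 0.0087 to 1; of *CYP79F1*, 0.0133 to 1). With all samples, *CYP79B2* had -2.26 (adjusted p = 0.612) and *CYP79F1* -1.13 (adjusted p = 0.458). With the 3 samples that stand apart left out together, 0 members passed in either line. Samples of *GC::AtTOR* and WT overlapped for 9 of 10 members, all but *MYB29*, which lay below WT as 3.18% of all genes did.

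Re-watered leaves had the most members past the test between a line and WT. The paper reports that all WT plants died in a screen with the same drought schedule, while most or all plants of each line survived. In a longer drought under short days, it reports that WT did not recover on re-watering and both lines did. The state of the plants sampled here is not given in the sources used here. The part of plant survival in these differences was not tested. In *GC::AtTOR* 6 of 10 members were lower than in WT, *MYB29*, *BCAT4*, *MAM1*, *CYP79F1*, *CYP83A1* and *SUR1*, beside 6.35% of all genes. In *35S::AtTOR* 3 of 10 were lower, *BCAT4*, *MAM1* and *CYP79F1*, beside 4.85%. None was higher, where 8.30% of all genes were higher for *GC::AtTOR* and 5.15% for *35S::AtTOR*. The median log2 fold change over the members was -1.50 for *GC::AtTOR* and -0.76 for *35S::AtTOR*, against all-gene medians of 0.01 and 0.02. The counts of 6 and 3 were the same with any single sample left out.

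*CYP79F1*, with the re-watered values given above, was 19.4-fold lower in *GC::AtTOR* than in WT (log2 fold change -4.28 ± 0.29 (SE), adjusted p = 4.74e-10) and 3.48-fold lower in *35S::AtTOR* (log2 fold change -1.80 ± 0.29 (SE), adjusted p = 5.04e-05). *BCAT4* was 11.7-fold lower in *GC::AtTOR* (log2 fold change -3.55 ± 0.30 (SE), adjusted p = 1.33e-08) and 2.68-fold lower in *35S::AtTOR* (log2 fold change -1.42 ± 0.30 (SE), adjusted p = 0.000788). *MAM1* was lower in *GC::AtTOR* (log2 fold change -2.59 ± 0.21 (SE), adjusted p = 8.97e-09) and in *35S::AtTOR* (log2 fold change -1.15 ± 0.21 (SE), adjusted p = 0.000209). The values of the 3 genotypes did not overlap for these 3 enzymes. *MYB29* (log2 fold change -1.42 ± 0.25 (SE), adjusted p = 9.24e-05), *CYP83A1* (log2 fold change -1.71 ± 0.16 (SE), adjusted p = 5.61e-08) and *SUR1* (log2 fold change -1.28 ± 0.23 (SE), adjusted p = 0.000129) passed in *GC::AtTOR*, and in *35S::AtTOR* their values were -0.29, -0.64 and -0.60. *MYB28* was at 0.15 in *GC::AtTOR* and 0.10 in *35S::AtTOR*, with intervals of -0.24 to 0.54 and -0.29 to 0.50.

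The indolic enzymes did not pass in re-watered *GC::AtTOR* leaves in the model of all groups, and did under other settings. For 9 of 10 members, all but *MYB28*, every re-watered *GC::AtTOR* sample lay below every WT sample, as for 29.0% of all genes tested, and for 7 of 10 every *35S::AtTOR* sample did, as for 25.5%. *CYP79B2* had 834, 779 and 809 normalized counts in re-watered *GC::AtTOR* leaves and 1042, 1084 and 1046 in *35S::AtTOR* leaves, against 1840.4, 2707 and 2732 in WT leaves. Its adjusted p was 0.0503 for *GC::AtTOR* (log2 fold change -1.56) and 0.147 for *35S::AtTOR* (-1.18). Over the same kind of alternatives, the adjusted p of *CYP79B2* in *GC::AtTOR* ranged over 0.000269 to 0.0643, and it passed with 5 added and with a mean of at least 50. Both *CYP79B2* and *CYP79B3* passed beside the 6, 8 members in all, with edgeR, DESeq2, equal sample totals and either replicate block, and all 3 indolic enzymes, 9 members in all, in a fit of only the compared groups. Over all genes, in either direction, these settings called 2947, 2922, 2752, 2755 and 2733 genes, and the fit of only the compared groups 2625. The main test called 2751. *CYP79B3* had 1093, 1353 and 1212 in *GC::AtTOR* leaves and 1666, 2211 and 1553 in *35S::AtTOR* leaves, against 2518, 3574 and 3882 in WT leaves (log2 fold change -1.43, adjusted p = 0.0646 for *GC::AtTOR*). *CYP83B1* was at -1.04 in *GC::AtTOR* (adjusted p = 0.249, and 0.000669 to 0.29 over the alternatives that keep all samples).

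The difference between a line's water response and that of WT was tested directly. The part of the poorer survival of WT plants that the paper reports was not tested here either. The re-watered response of *GC::AtTOR* was more negative than that of WT for *MYB29*, *BCAT4*, *MAM1*, *CYP79F1*, *CYP83A1* and *SUR1*, 6 of 10 beside 7.87% of all genes, and that of *35S::AtTOR* for *BCAT4*, *MAM1*, *CYP79F1* and *SUR1*, 4 of 10 beside 7.63%. The largest difference was that of *CYP79F1* in *GC::AtTOR*, -4.46 ± 0.41 (log2, SE, adjusted p = 1.64e-07), and the smallest that passed was *SUR1* in *35S::AtTOR*, -1.02 ± 0.32 (adjusted p = 0.018), which was lost without any one of 4 samples, WT re-watered replicates 2 and 3 and *35S::AtTOR* re-watered replicates 1 and 3. *MYB29* in *GC::AtTOR* was lost without *GC::AtTOR* well-watered replicate 3, *GC::AtTOR* re-watered replicate 2 or WT re-watered replicate 2, and *CYP83A1* in *35S::AtTOR* passed without *35S::AtTOR* re-watered replicate 2. The drought response differed from that of WT for 0 of 10 members in *GC::AtTOR*, beside 0.245% of all genes in either direction, and for 0 of 10 in *35S::AtTOR*, beside 3.45%, in limma and edgeR; 7 and 0 members had an unadjusted p under 0.05, and DESeq2 called *BCAT4* in *GC::AtTOR*. With no share of all genes beside it, the number in *GC::AtTOR* was 7 without WT drought replicate 3 and 6 without *GC::AtTOR* drought replicate 1. With the 3 samples that stand apart left out together it was 1, *CYP79B2* (-1.84, adjusted p = 0.0295).

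**Figure D5:**
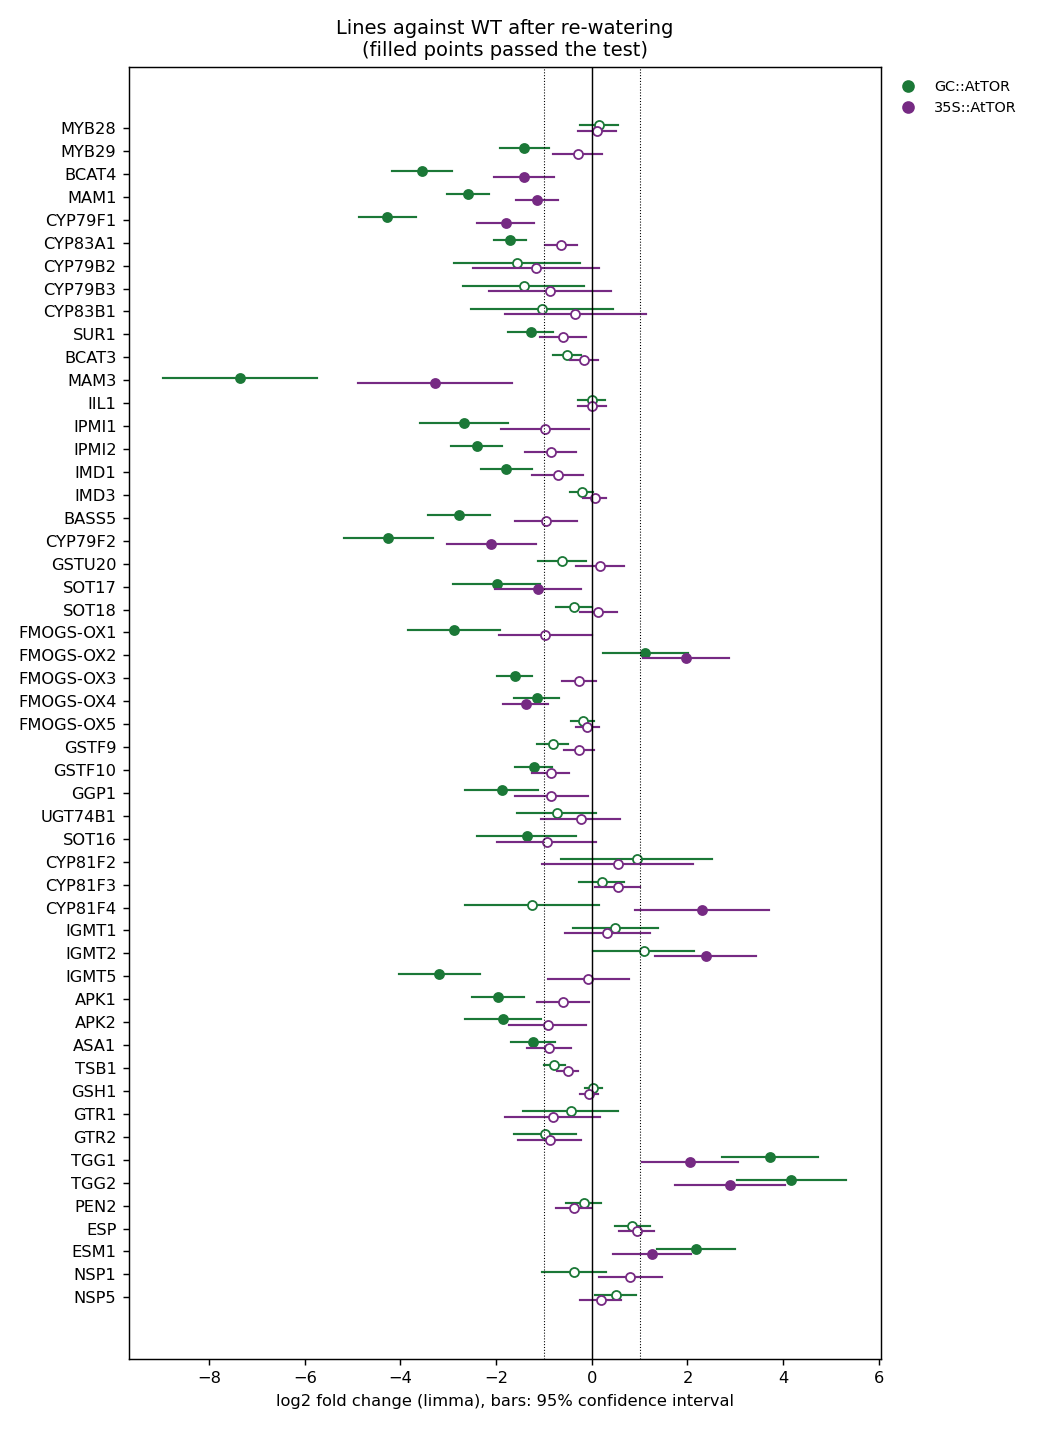
Log2 fold change in re-watered leaves of *GC::AtTOR* (upper) and *35S::AtTOR* (lower) against WT (x axis) for the 10 members, then the other tested genes of chain elongation, the aliphatic core, the aliphatic side chain, the indolic and shared core, the indolic side chain, co-substrates, transport and breakdown; points are limma estimates, bars their 95% confidence intervals and filled points passed the test. *MAM3*, *CYP79F2* and the aliphatic enzymes lie far left in *GC::AtTOR*, and *TGG1*, *TGG2* and *ESM1* lie to the right in both lines.

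The other genes of the pathway were listed by role, 62 with a value in the table and 52 of them tested. In re-watered *GC::AtTOR* leaves 19 of the 52 were lower than in WT and 4 higher, and in *35S::AtTOR* leaves 5 were lower and 7 higher, with medians of -0.68 and -0.25. Of all genes tested, 6.35% were lower and 8.30% higher in *GC::AtTOR*, and 4.85% lower and 5.15% higher in *35S::AtTOR*. Among the 12 further genes of chain elongation and the aliphatic core, 7 were lower in *GC::AtTOR* and 3 in *35S::AtTOR*, none higher. *MAM3*, the sister enzyme that makes longer chains, had 0.00, 3.58 and 6.16 normalized counts in re-watered *GC::AtTOR* leaves and 41.3, 62.1 and 56.2 in *35S::AtTOR* leaves, against 533, 568 and 467 in WT leaves (log2 fold change -7.35 ± 0.78 (SE), adjusted p = 2.32e-07 for *GC::AtTOR*). *MAM3* was unlike *MAM1* in WT, where it rose with re-watering (log2 fold change 3.31 ± 0.78 (SE), adjusted p = 0.000844). *BASS5*, the chloroplast carrier of the keto acid intermediates (log2 fold change -2.78), and the isopropylmalate isomerase *IPMI1* (-2.67) were lower in *GC::AtTOR*, with adjusted p of 5e-07 and 5.96e-05.

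Of 7 other regulators tested, *MYB76*, the third aliphatic activator, was at 7.78, 3.58 and 2.06 normalized counts in re-watered *GC::AtTOR* leaves, against 14.3, 28.0 and 19.6 in WT leaves (log2 fold change -2.07 ± 0.37 (SE), adjusted p = 0.000106), and it also fell with re-watering in WT (-1.89, adjusted p = 0.000123). *MYB34*, an activator of indolic synthesis, had 206, 165 and 207 in re-watered *GC::AtTOR* leaves and 194, 452 and 228 in *35S::AtTOR* leaves, against 662, 1107 and 1039 in WT leaves (log2 fold change -2.25 ± 0.46 (SE), adjusted p = 0.000491 for *GC::AtTOR*). It passed as lower in *35S::AtTOR* too (-1.75, adjusted p = 0.00482). *MYB51*, another indolic activator, had 2940.1, 2741 and 2775 in re-watered *GC::AtTOR* leaves and 2306, 2711 and 2737 in *35S::AtTOR* leaves, against 3447, 2491 and 3024 in WT leaves, and the groups overlapped.

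Of 7 genes of glucosinolate breakdown tested, 3 were higher in both re-watered lines than in WT, beside the 8.30% and 5.15% of all genes given above, and none was lower. *TGG1* and *TGG2*, the myrosinases of the leaf, and *ESM1*, which favours isothiocyanates among the products, were the 3. *TGG2* had 38639.5, 12359 and 11512 normalized counts in re-watered *GC::AtTOR* leaves and 6605, 7530.4 and 7771 in *35S::AtTOR* leaves, against 607, 604 and 2542 in WT leaves (log2 fold change 4.17 ± 0.55 (SE), adjusted p = 3.87e-06 for *GC::AtTOR* and log2 fold change 2.90 ± 0.55 (SE), adjusted p = 0.000308 for *35S::AtTOR*). *TGG1* was at 3.73 in *GC::AtTOR* and 2.06 in *35S::AtTOR* (log2 fold changes). For *ESM1* these were 2.18 and 1.26. In re-watered WT leaves all 3 fell below their well-watered level, with log2 fold changes of -4.09 for *TGG1*, -3.45 for *TGG2* and -2.07 for *ESM1*.

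Marker lists of leaf cell types moved with the same contrast. All 4 mesophyll markers were higher in re-watered *GC::AtTOR* leaves than in WT and 3 of 4 in *35S::AtTOR*, with summed counts of 237560.0 to 262759 in *GC::AtTOR* and 102075 to 157562 in *35S::AtTOR*, against 61718 to 77387 in WT; none was at 0. All 4 are photosynthesis genes. Guard cell (0 higher and 0 lower of 5), epidermis (0 and 0 of 3) and bundle sheath markers (0 and 0 of 2) gave no call in *GC::AtTOR* against WT in limma, 1 of 4 phloem and 1 of 3 xylem markers were higher, and their medians lay between -0.32 and 1.35. *GC::AtTOR* re-watered replicate 1 stood apart. Its xylem markers summed to 398.5, against 112.9 and 128.4 in replicates 2 and 3. For guard cell markers the sums were 941.8, against 558.3 and 574.4, and for phloem markers 8347, against 6448 and 6582. Of 10 jasmonate genes, 3 were lower in *GC::AtTOR* and 1 was higher in *35S::AtTOR*, with summed counts of 24789 to 32646 and 50164 to 128138, against 75029 to 111551 in WT. The part of any of these lists in the members' difference was not tested.

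Across the 27 samples the members fell into a close aliphatic set and a close indolic set. Pearson's r of log2 values, as a description over samples that share groups, was 0.989 between *BCAT4* and *CYP79F1*, 0.980 between *CYP79F1* and *CYP83A1* and 0.945 between *MYB29* and *MAM1*. Among the indolic enzymes it was 0.961 for *CYP79B2* and *CYP79B3* and 0.979 for *CYP79B2* and *CYP83B1*. *MYB28* was nearer to the indolic set (0.853 with *CYP79B2*) than to the aliphatic enzymes it is known to activate (-0.229 with *CYP79F1*), and *SUR1* lay between, at 0.851 with *CYP83A1* and 0.561 with *CYP79B2*.

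Outside the members, the genes whose profile over the 27 samples was most like the mean of the 6 aliphatic members were *BASS5* (r = 0.980), the aspartate kinase *AK3* (AT3G02020, 0.979), *IPMI1* (0.974), *FMOGS-OX1* (0.971), a side-chain oxygenase, and the isopropylmalate dehydrogenase *IMD1* (0.971). All but *AK3* were already on the pathway lists. That mean includes *MYB28*, which had r of -0.507 with *MYB29* and -0.229 with *CYP79F1*. For the 3 indolic members the most alike genes were AT5G54710 (0.955), the receptor kinase *PERK15* (AT1G52290, 0.954), AT2G18690 (0.951), AT4G36500 (0.949) and AT2G40270 (0.948), none of them on a list.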

How the data were processed

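The authors sequenced TruSeq libraries of leaf RNA as paired reads of 150 cycles, used Trimmomatic for trimming, STAR for alignment to TAIR10, Salmon for quantification and DESeq2 for normalization; versions are not given in the sources used here. The deposited values are a signal: each gene's count over its sample's DESeq2 size factor, with no correction for gene length. In 26 of 27 samples whole reads were recovered (100% of values whole within 0.1 reads, total 2739872 to 16707106); *35S::AtTOR* well-watered replicate 1 was left out of the count tests. 0 value columns were left unused.

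Groups were taken from the labels. The main test was limma 3.58.1 (R 4.3.3, eBayes with trend) on log2(normalized count + 1) in 1 model of 9 groups with 18 residual degrees of freedom, for the 18785 genes whose mean reached 10 in any group, with Benjamini-Hochberg adjustment over all of them. The pseudocount makes fold changes of low genes too small. Passing needed an adjusted p of less than 0.05 and a log2 fold change beyond 1 in either direction. There were 19 comparisons: drought, re-watered and re-watered against drought in each genotype, each line against WT in each treatment, and 4 differences of response. edgeR 4.0.16 and DESeq2 1.42.0 on the recovered reads were alternatives, with other pseudocounts and filters, only the groups compared, equal totals, a replicate block and each sample left out; leaving out 3 drought samples together was chosen after seeing the data. The script was tested on simulated data.

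The members and all gene lists were chosen with earlier results of these data known. The named genes were the 10 members, *TOR*, the pathway genes with the largest changes, companion lists as counts and medians, and the 5 genes most like each branch by Pearson's r. Of 125 list entries 5 were dropped, because the symbol was not paired with the locus or the table used here has no row for it. *MYC2*, *GSTF11* and *CYP81F1* are listed at 0 in every sample. Symbols came from RefSeq (32548 loci matched); positions, coding lengths and promoter sequence are those of TAIR10.1 and no coordinate was taken from the deposited table. The normalized counts are not per length, and levels were divided by coding length only where this is said. The replicate numbers did not pair the samples.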

Additional observations from a re-analysis of the deposited data

Results flagged for a closer look

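In 10 tests of the difference itself, a line's response to re-watering (re-watered against well-watered, log2) differed from that of WT, all in the negative direction. The paper reports poorer survival of WT plants after drought, and its part in these differences was not tested. For *GC::AtTOR* the differences were -1.15 for *MYB29*, -4.03 for *BCAT4*, -2.75 for *MAM1*, -4.46 for *CYP79F1*, -1.66 for *CYP83A1* and -1.35 for *SUR1*. For *35S::AtTOR* they were -2.23 for *BCAT4*, -1.94 for *MAM1*, -2.54 for *CYP79F1* and -1.02 for *SUR1*. The *MYB29* difference in *GC::AtTOR* had adjusted p of 0.00586 to 0.0503 when single samples were left out, and no longer passed without *GC::AtTOR* well-watered replicate 3, WT re-watered replicate 2 or *GC::AtTOR* re-watered replicate 2. That of *SUR1* in *35S::AtTOR* no longer passed without WT re-watered replicate 2 or 3 or *35S::AtTOR* re-watered replicate 1 or 3.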

How the results depend on the processing

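No called member changed direction under any alternative. The number of members that passed moved by more than 1.5 times with equal totals and with DESeq2: 2 with equal sample totals, against 4, for drought in *35S::AtTOR*, and 1 with DESeq2, against 0, for the drought response of *GC::AtTOR* against that of WT. With WT drought replicate 3 and *GC::AtTOR* drought replicates 2 and 3 left out together, which was chosen after seeing the data, 5 members passed, against 8, for drought in *GC::AtTOR* and 1, against 0, for its difference from the drought response of WT. With 1 sample left out at a time, the numbers ranged over 8 to 9, 2 to 4 and 2 to 4 for drought in *GC::AtTOR*, *35S::AtTOR* and WT; 6 to 6, 6 to 6 and 4 to 5 for re-watered against well-watered; 9 to 9, 7 to 9 and 6 to 8 for re-watered against drought; 0 to 6 for drought *GC::AtTOR* and 0 to 0 for drought *35S::AtTOR* set against WT; 0 to 7 and 0 to 0 for the difference in drought response; and 5 to 6 and 3 to 5 for that in re-watered response. The highest, 6 and 7 for *GC::AtTOR*, came without WT drought replicate 3, and 6 and 6 without *GC::AtTOR* drought replicate 1.

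The replicate numbers did not pair the samples (5 of 45 same-numbered pairs correlated above 0.1, median -0.00775), and 12 samples have a library number that differs from the replicate number. With the replicate block, 8 members passed in re-watered *GC::AtTOR* against WT in place of 6, and the numbers in the other comparisons were as reported. A block by library number gave the same 8. Over all genes these blocks called 2755 and 2733 in that comparison, against 2751 without a block.

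Among all genes tested, equal sample totals moved the median log2 fold change to 0.24, 0.24, 0.21 and 0.34 for drought in *GC::AtTOR* and WT and re-watering in *35S::AtTOR* and WT, and to 0.11 for well-watered *35S::AtTOR* against WT. The higher share of calls for the difference in drought response of *35S::AtTOR* became 35.6% in place of 60.4%, and that in drought *GC::AtTOR* against WT, with 3 genes called, 50% in place of 66.7%. For the difference in drought response of *GC::AtTOR*, the 46 genes called became 408 with DESeq2, 3 with only the groups compared, 30 with 0.5 added, 26 with a mean of at least 50 and 73 with the replicate block. The 291 called in drought *35S::AtTOR* against WT became 3 with only those groups, the 201 in well-watered *GC::AtTOR* became 461 with DESeq2, and the 3 in drought *GC::AtTOR* became 0 to 8. The cause of these changes was not tested. Among the samples, *35S::AtTOR* re-watered replicate 1, the shallowest sample, has 4.13 normalized counts per read.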

Other observations

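Genes of the sulfur supply and of indole side branches were not described above. *APK1*, which provides activated sulfate to the sulfotransferases of the pathway, had 468, 458 and 438 normalized counts in re-watered *GC::AtTOR* leaves and 1079, 1616 and 922 in *35S::AtTOR* leaves, against 1488, 1825 and 2055 in WT leaves; it passed as lower in *GC::AtTOR* (log2 fold change -1.96 ± 0.26 (SE), adjusted p = 4.56e-06) and was at -0.60 in *35S::AtTOR*. *IGMT5*, a methyltransferase that modifies indolic glucosinolates, had 138, 88.7 and 69.9 in re-watered *GC::AtTOR* leaves and 839, 1545 and 440.3 in *35S::AtTOR* leaves, against 450.2, 749 and 1963 in WT leaves (log2 fold change -3.18 ± 0.41 (SE), adjusted p = 2.66e-06 for *GC::AtTOR*). *GTR1*, a glucosinolate importer of leaf cells, had 5979, 6243 and 6823 in re-watered WT leaves, against 1044, 1324 and 1178 in well-watered ones (log2 fold change 2.43 ± 0.48 (SE), adjusted p = 0.000154). The difference of re-watered *GC::AtTOR* leaves, with 3885, 5358 and 4919, from re-watered WT leaves did not pass (-0.44, adjusted p = 0.487). *PAD3*, the last enzyme of camalexin synthesis, which shares indole-3-acetaldoxime with the indolic branch, was lower in drought in *GC::AtTOR* (-7.46, adjusted p = 2.93e-09) and in WT (-4.43, adjusted p = 3.56e-06). Without WT drought replicate 3 and *GC::AtTOR* drought replicates 2 and 3, *PAD3* was at -6.71 in *GC::AtTOR* and at -3.73 in WT. In that fit the drought response of *PAD3* in *35S::AtTOR* differed from that in WT by 0.41 (log2).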
